A study of Mus musculus with 8 samples.

Results

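Wnt ligands, their R-spondin potentiators and their secreted antagonists were measured in cells of orthotopic mouse colon tumours by SORT-seq, in which single cells are sorted into wells and the 3′ ends of their transcripts are counted. The 10 genes were Wnt2, Wnt2b, Wnt4, Wnt5a, Rspo1, Rspo3, Sfrp1, Sfrp2, Sfrp4 and Frzb, chosen by name and function, out of 20275 genes counted. Each of the 8 plates of 384 wells held cells of 1 tumour from 1 mouse, 4 plates from FibCtrl mice and 4 from FibΔZeb1 mice. Tumours grew from engineered colon organoids placed in the cecum of syngeneic mice. All mice received a tamoxifen diet and, per the study's methods, carried floxed alleles of Zeb1, a transcriptional repressor known for its role in epithelial-mesenchymal transition. FibΔZeb1 mice also carried an inducible Cre recombinase, and FibCtrl mice were negative for it. The labels name the driver Col1a1Cre-ERT2 and the study's methods name Col1a2-CreERT2, so the promoter is not certain, and cells that do not use it keep Zeb1 by design. Wells were not taken by sort gate here but by their own transcripts, so the sort still sets how many wells of each kind a plate holds.

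Wnt proteins are lipid-modified secreted ligands that bind Frizzled receptors and, with Lrp5 or Lrp6, stabilise β-catenin, while some, such as Wnt5a, act mainly through other branches of the pathway. R-spondins bind Lgr receptors and keep the ligases Rnf43 and Znrf3 from removing Frizzled receptors, and Sfrp proteins and Frzb carry a Frizzled-like domain that binds Wnt ligands outside the cell. In the gut, stromal cells around the crypt are a known source of Wnt2b and R-spondins, whereas cells without functional Apc hold β-catenin signalling on without a ligand.

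All 10 genes are annotated as protein coding, and their loci are given on GRCm38. The Wnt genes lie at chr6:17988940-18030585 (Wnt2, minus strand), chr3:104945272-104961921 (Wnt2b, minus), chr4:137277489-137299726 (Wnt4, plus) and chr14:28504750-28527448 (Wnt5a, plus). The R-spondin genes lie at chr4:124986430-125009099 (Rspo1, plus) and chr10:29452416-29535867 (Rspo3, minus). The antagonists lie at chr8:23411502-23449632 (Sfrp1, plus), chr3:83766321-83774316 (Sfrp2, plus), chr13:19623104-19632994 (Sfrp4, plus) and chr2:80411970-80447625 (Frzb, minus).

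Because the mice differ in Zeb1, the promoters of the members were searched for the E-box that ZEB1 is known to bind, CAGGTG or its reverse complement CACCTG. RefSeq promoters of GRCm38.p6, from 250 bases before to 50 bases after the start, were matched for 6 of the 10 genes (Wnt2, Wnt2b, Wnt4, Rspo1, Sfrp2 and Frzb). The E-box was present in 2 of the 6, against 20.2% of 32851 promoters of the same length. The 2 that hold it are printed 5′ to 3′ on the strand of the gene, with the E-box in capitals.
Wnt4, chr4:137277385-137277684, plus strand: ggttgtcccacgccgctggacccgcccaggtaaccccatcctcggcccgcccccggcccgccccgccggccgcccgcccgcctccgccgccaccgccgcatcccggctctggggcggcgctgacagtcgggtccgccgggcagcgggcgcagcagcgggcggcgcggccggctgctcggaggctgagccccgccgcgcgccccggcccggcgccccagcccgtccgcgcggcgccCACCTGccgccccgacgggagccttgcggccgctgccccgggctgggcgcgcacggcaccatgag
Wnt2b, chr3:104961660-104961959, minus strand: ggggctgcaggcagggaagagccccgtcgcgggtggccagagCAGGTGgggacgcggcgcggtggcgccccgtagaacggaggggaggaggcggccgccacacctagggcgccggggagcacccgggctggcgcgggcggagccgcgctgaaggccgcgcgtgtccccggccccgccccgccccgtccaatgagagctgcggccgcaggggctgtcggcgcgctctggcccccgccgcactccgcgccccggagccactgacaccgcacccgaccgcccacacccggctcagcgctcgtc
The E-box of Wnt4 begins 15 bases before the start and that of Wnt2b 208 bases before it. These are the RefSeq starts, which lie inside the loci given above, and both E-boxes also fall within those loci. A TCF site (CTTTGAT or ATCAAAG), the sequence bound by the nuclear partners of β-catenin, was in none of the 6 and in 3.73% of all promoters. A match of letters is not evidence of binding.

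Of 3072 wells, 1831 passed the filters. These were a depth of 500 or more cell transcripts and a share of mitochondrial transcripts at most 3 median absolute deviations above the plate median. Clusters, built without the members or any other Wnt pathway gene, were named from marker genes. This gave 122 fibroblast-like wells, 34 mesothelial-like wells, 27 pericyte-like wells and 391 epithelial-like wells, with 429 wells left in unnamed clusters. Plates held from 981881 (FibCtrl 2) to 5905188 (FibCtrl 1) cell transcripts. FibCtrl plates 1 to 4 gave 37, 3, 4 and 25 fibroblast-like wells, and FibΔZeb1 plates 1 to 4 gave 20, 6, 14 and 13, which leaves 5 plates with at least 10. In the fibroblast-like wells the mesothelial list summed to between 25.0 and 331 CPM per plate, with Wt1 as its leading gene and 4 to 6 of the 7 markers at 0 on each plate. Values are in CPM, transcripts per 1000000 cell transcripts. They count 3′ ends and are not scaled for length, and intervals on sums are exact Poisson intervals that cover counting error only.

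The 3 Sfrp genes were by count the most abundant members in fibroblast-like wells, the group that most of their transcripts came from. Pooled over plates, Sfrp2 stood at 699 CPM (95% interval 671 to 727), Sfrp4 at 641 CPM (614 to 669) and Sfrp1 at 593 CPM (567 to 619). The fibroblast-like wells held 78.0% of all Sfrp4 transcripts in the series, 74.6% of Sfrp2 and 64.0% of Sfrp1. Epithelial-like wells held 2.50 CPM of Sfrp4, 16.1 CPM of Sfrp2 and 11.6 CPM of Sfrp1. Frzb (112 CPM, 101 to 124) and Wnt2 (72.3 CPM, 63.4 to 81.9) were lower in fibroblast-like wells, which again held more of their transcripts than all other wells together, with 53.6% and 57.8%. Frzb is also known as a cartilage protein, and Wnt2 is a ligand of the β-catenin branch.

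The remaining members were not led by the fibroblast-like wells, and for Rspo3 most transcripts were not in stromal wells at all. Wnt4 and Rspo1 were highest in mesothelial-like wells, at 757 CPM (702 to 814) and 163 CPM (138 to 190), against 117 CPM and 8.62 CPM in fibroblast-like wells. Mesothelial cells line the outer surface of the gut, and 15 of the 34 wells came from FibCtrl 3. Rspo3 was at 87.2 CPM (82.4 to 92.4) in epithelial-like wells and at 8.32 CPM (5.53 to 12.0) in fibroblast-like wells, and epithelial-like wells held 90.1% of its 1319 transcripts. Wnt5a stood at 44.9 CPM in fibroblast-like, 63.9 CPM in pericyte-like, 102 CPM in mesothelial-like and 54.0 CPM in epithelial-like wells. Epithelial-like wells held 62.7% of its transcripts, but they also held 13612077 cell transcripts, against 3363886 in fibroblast-like wells. That share therefore does not show a higher level. Wnt2b was close to the limit of detection, with 18 transcripts in the whole series and 3 in fibroblast-like wells (0.892 CPM, 0.184 to 2.61). By level, the description of these genes as stromal goes against the data for Rspo3 and does not separate Wnt5a.

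**Figure D1:**
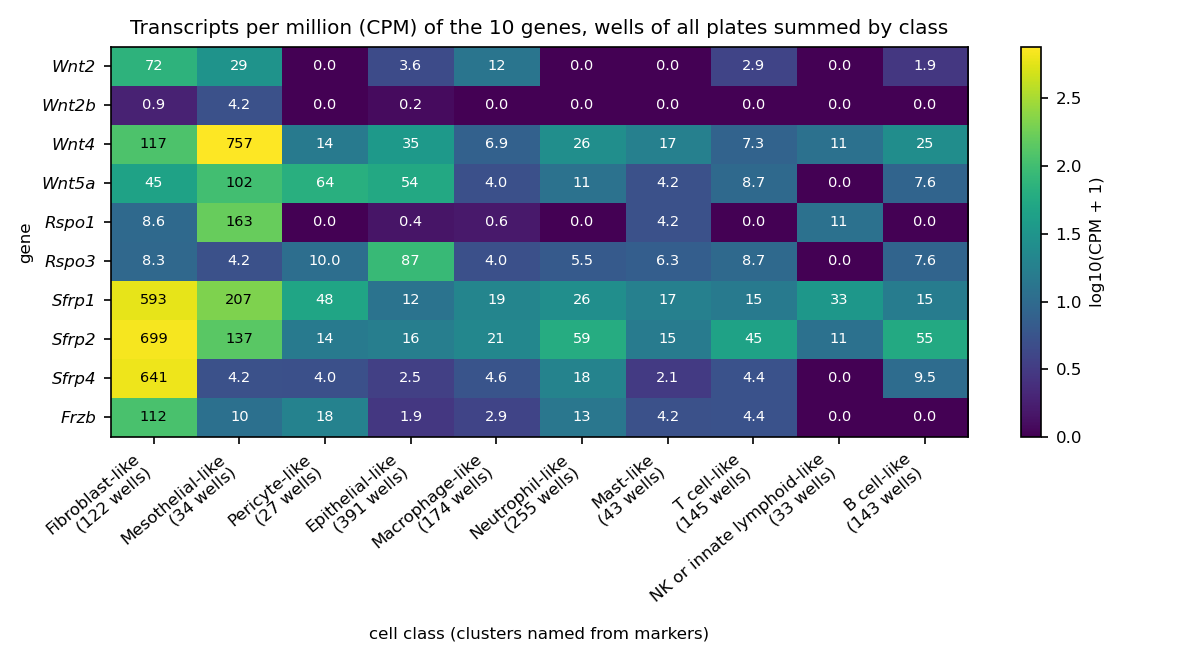
Level of the 10 genes in each named class, with the wells of all plates summed, as CPM in each cell and as colour on a scale of log10(CPM + 1). Rspo3 is highest in epithelial-like wells (87.2 CPM), Wnt4 (757 CPM) and Rspo1 (163 CPM) in mesothelial-like wells, and the 3 Sfrp genes in fibroblast-like wells.

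For the share of wells with a transcript, all wells were thinned to a depth of 2000 transcripts, with exact binomial intervals. B cell-like wells, which are not known to use these genes, served as the background. The wells of all plates were pooled, so these intervals cover counting error and not the differences between mice. Thinned, Rspo3 was found in 11.2% of 385 epithelial-like wells (8.20 to 14.7%), in 1.65% of 121 fibroblast-like wells (0.201 to 5.84%) and in 0.909% of 110 B cell-like wells. Unthinned, the shares were 30.7%, 15.6% and 2.80%, at median depths of 27373, 22461 and 2744 transcripts. At matched depth the fibroblast-like share of Rspo3 was thus within counting error of the background. Wnt4 was found in 53.1% of 32 thinned mesothelial-like wells (34.7 to 70.9%), 9.92% of fibroblast-like wells and 2.73% of B cell-like wells (82.4%, 32.8% and 7.69% unthinned). Rspo1 was found in 28.1% of mesothelial-like wells (13.7 to 46.7%) and in 0.826% of fibroblast-like wells, with none in 110 B cell-like wells (70.6%, 12.3% and 0% unthinned). Sfrp4 was found in 32.2% of fibroblast-like wells (24.0 to 41.3%) and 1.82% of B cell-like wells (60.7% and 3.5% unthinned), and Wnt5a in 9.09% of fibroblast-like and 7.53% of epithelial-like wells (41.8% and 53.5% unthinned).

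Whether a member was higher in stromal than in epithelial wells was tested within 6 plates (FibCtrl 1, 3 and 4 and FibΔZeb1 1, 3 and 4). Stromal wells were taken by a collagen share of at least 0.3% and epithelial wells by Epcam, so no member took part in the choice. Sfrp1, Sfrp2, Wnt2 and Wnt4 were higher in stromal wells and Rspo3 was higher in epithelial wells, which is 5 of the 6 members that passed the filter on low counts, where 43.7% of all 9635 genes tested were called. Of all genes, 22.7% were called higher and 20.9% lower in stromal wells. Sfrp4, Frzb, Rspo1 and Wnt2b did not pass that filter and were not tested. Sfrp4 stood at 540, 0 and 1242 CPM and at 201, 346 and 319 CPM in stromal wells, and at 0 to 5.74 CPM in epithelial wells, so FibCtrl 3 was the only plate of the 6 without it in stromal wells. The stromal gate of FibCtrl 3 took in 20 wells. That plate held 15 mesothelial-like and 4 fibroblast-like wells, and mesothelial-like wells held 4.20 CPM of Sfrp4 pooled over plates. The part of this mix in the absence of Sfrp4 was not tested.

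In stromal wells Sfrp1 stood at 291, 309 and 555 CPM on the FibCtrl plates and at 391, 93.4 and 1040 CPM on the FibΔZeb1 plates, against 10.8, 3.69 and 6.18 CPM and 22.8, 0.552 and 21.5 CPM in epithelial wells. Every stromal value lay above every epithelial value, and the difference was 5.85 ± 0.36 on the log2 scale (SE, edgeR quasi-likelihood test, Benjamini-Hochberg adjusted p = 9.43e-07). Sfrp2 stood at 623, 90.1 and 1161 CPM and at 53.8, 443 and 820 CPM in stromal wells, and between 2.95 and 33.2 CPM in epithelial wells. These also did not overlap, with a difference of 5.64 ± 0.36 (edgeR, adjusted p = 1.07e-06). Wnt2 stood at 38.6, 41.9 and 190 CPM and at 18.6, 22.5 and 57.1 CPM in stromal wells, all above the 0.552 to 12.7 CPM of epithelial wells (4.92 ± 0.78, edgeR adjusted p = 0.000502).

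Wnt4 was less even. Its stromal level was 29.9, 794 and 72.7 CPM on the FibCtrl plates and 29.6, 308 and 297 CPM on the FibΔZeb1 plates, and the epithelial level was 17.9, 16.2 and 10.5 CPM and 58.4, 21.0 and 7.87 CPM. On FibΔZeb1 1 the order was the opposite of the other plates, and the difference was 3.38 ± 0.84 (edgeR adjusted p = 0.00800). Over all plates the stromal gate took in 24 mesothelial-like wells, 24 pericyte-like wells and 39 wells of unnamed clusters, and without the mesothelial-like wells the difference was 2.38 (edgeR adjusted p = 0.0238).

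Rspo3 went the other way. In epithelial wells it stood at 244, 19.2 and 28.5 CPM on the FibCtrl plates and at 156, 9.94 and 55.9 CPM on the FibΔZeb1 plates, and in stromal wells of the same plates at 20.4, 0 and 0 CPM and at 6.57, 0 and 21.9 CPM. The epithelial level was the higher on each of the 6 plates, and the stromal minus epithelial difference was -3.14 ± 0.49 (edgeR adjusted p = 0.000488). For Wnt5a the stromal levels were 58.2, 39.0 and 6.60 CPM and 35, 96.5 and 28.5 CPM, and the epithelial levels 48.5, 60.5 and 43.9 CPM and 19.0, 99.5 and 56.6 CPM. These overlapped throughout, and the difference was -0.01 ± 0.34 (edgeR adjusted p = 0.981).

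**Figure D2:**
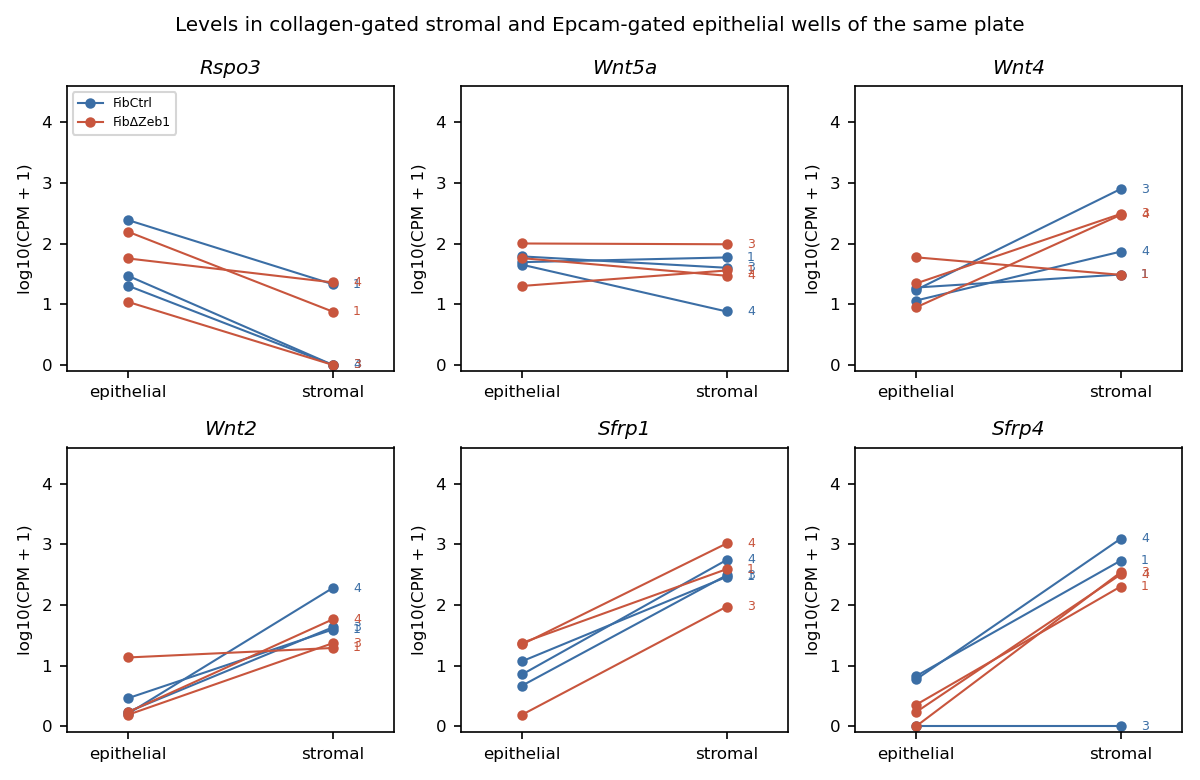
Level of 6 members in epithelial and stromal wells of the same plate, as log10(CPM + 1), with a line and replicate number for each plate and a colour for each genotype. Stromal wells lie higher on all 6 plates for Sfrp1 and Wnt2, epithelial wells lie higher on all 6 for Rspo3, and the lines of Wnt5a have no common direction.

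Other genes of the pathway split between the same wells. Of 7 tested feedback targets of β-catenin signalling, 6 were lower in stromal wells and none higher, among them Axin2 (-3.76 ± 0.28) and Notum, an enzyme that inactivates Wnt ligands (-2.94 ± 0.20). Rnf43, which removes Frizzled receptors and is counteracted by R-spondins, was lower in stromal wells (-5.56 ± 0.44), as was Lgr5, an R-spondin receptor (-3.82 ± 0.46). Of 4 tested other Wnt ligands, Wnt11 was higher in stromal wells (2.87 ± 0.40) and Wnt5b, Wnt6 and Wnt10a (-6.44 ± 0.57) were lower. Of 5 other secreted antagonists, Dkk3 (6.99 ± 0.41) and Igfbp4 (5.61 ± 0.47) were higher in stromal wells, and Dkk2, Notum and Wif1 (-4.49 ± 0.31) were lower. Of 14 tested receptors and coreceptors, Fzd1 (2.69 ± 0.19), Fzd2, Fzd7, Fzd8, Lrp6, Ror2 and Ryk were higher in stromal wells, and Fzd6, Fzd10 (-4.13 ± 0.39), Lrp5 and Lgr5 were lower. Wls, which carries Wnt ligands to the cell surface, was higher in stromal wells (0.98 ± 0.15). The median difference was 4.15 over the 6 members tested and -0.06 over all genes tested. All calls are from edgeR at an adjusted p under 0.05.

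Among epithelial-like wells the level of Rspo3 differed between plates and clusters. It stood at 253, 76.4, 19.1 and 25.6 CPM on the FibCtrl plates and at 145, 6.54, 7.94 and 56.3 CPM on the FibΔZeb1 plates. The first plate of each genotype was the highest, and the genotypes overlapped (FibΔZeb1 minus FibCtrl -0.83 ± 1.1 on the log2 scale, edgeR adjusted p = 1.0). A cluster led by Twist1, Bmp4 and T, a transcription factor of early mesoderm, held 206 CPM of Rspo3 over all plates, and a smaller cluster held 111 CPM, against at most 17.9 CPM in the other 3 epithelial clusters. The smaller cluster, whose leading genes include Stmn1, Ccnb2 and Ccna2, was uneven between plates. It held 241 CPM on FibCtrl 1, 0 CPM on FibΔZeb1 3 and 27.3 CPM on FibΔZeb1 4, the plates with at least 5 of its wells. In the Twist1 cluster 103 of 112 wells held Epcam, at 794 CPM against 684 to 2296 CPM in the other epithelial clusters, and the 8 fibroblast markers summed to 2181 CPM against 564 to 1283 CPM, whose part in the Rspo3 level was not tested. The Twist1 cluster made up 43 of the 53 epithelial-like wells of FibCtrl 1 and 36 of the 43 of FibΔZeb1 1, and there Rspo3 stood at 263 and 152 CPM. On FibCtrl 2 and FibΔZeb1 4 that cluster held 185 and 214 CPM, and on FibΔZeb1 3 it held 8.01 CPM. Immune wells of the same plates held from 0 to 18.0 CPM.

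Other members of the epithelial-like wells gave no call between genotypes, as did all other genes: 0 of 10337 passed (187 had an unadjusted p under 0.05 in edgeR, and DESeq2 called 1). Wnt4 stood at 14.4, 299.5, 16.2 and 10.5 CPM on the FibCtrl plates and at 50.9, 11.1, 38.1 and 7.93 CPM on the FibΔZeb1 plates. The FibCtrl 2 value lay far above the others of its genotype, and the difference was -1.63 ± 1.14 (edgeR adjusted p = 1.0), turning to 1.01 without that plate. On FibCtrl 2, 7 wells of the Twist1 cluster held 181 of the Wnt4 transcripts. Immune wells of FibCtrl 2 also held 93.9 CPM of Wnt4 (9 transcripts), against 5.78 to 15.3 CPM on the other plates. Wnt5a differed by 0.30 ± 0.46, Sfrp1 by 0.34 ± 0.89 and Sfrp2 by -1.41 ± 0.65 (edgeR adjusted p = 1.0 for each).

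Fibroblast-like wells were split by transcripts of the contractile genes Tagln and Acta2 against the matrix genes Dpt and Lum. This gave 66 matrix wells and 46 contractile wells, with 10 wells left out for too few of these transcripts and 13 wells within 0.35 to 0.65 of the contractile share. Median depth was 23499 transcripts in matrix and 23778 in contractile wells. Sfrp2 and Sfrp4, which share the Frizzled-like domain with Frzb, were lower in contractile wells, and Sfrp1 did not follow them. Summed markers of other contractile cells moved with the split, though not every marker did. Pooled over plates, the pericyte markers Kcnj8 (39.96 against 4.68 CPM) and Abcc9 (45.6 against 15.6 CPM) were higher in matrix than in contractile wells. So was the smooth muscle marker Synm (17.7 against 0.779 CPM), and the other smooth muscle markers were higher in contractile wells. Cspg4 (401 CPM), Mcam, Ndufa4l2 and Notch3 led the pericyte sum in contractile wells. In these wells Rgs5 stood at 6.23 CPM and Higd1b at 0 CPM. On FibCtrl 1 and 4 and FibΔZeb1 1, 3 and 4 the 8 pericyte markers summed to 126, 329, 247, 46.9 and 38.4 CPM in matrix wells and to 729, 667, 836, 1307 and 545 CPM in contractile wells, with 2 to 6 and 1 to 4 of them at 0. The 6 smooth muscle markers summed to between 25.5 and 108 CPM in matrix wells and between 200.2 and 515 CPM in contractile wells of these plates, with 2 to 3 and 0 to 5 of them at 0. Both lists were higher in contractile wells on 5 of 5 plates, and their part in the member levels was not tested. Of 66 matrix wells, 50 held Sfrp2, 56 held Sfrp4, 43 held both and 3 held neither, while of 46 contractile wells 14 held Sfrp2, 15 held Sfrp4, 4 held both and 21 held neither.

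The test was made within plates. With at least 5 wells of each kind only FibCtrl 1 and FibΔZeb1 3 remained, and 2 of the 7 members tested were called, both lower in contractile wells, where 3.38% of 6501 genes were called (1.38% higher and 2.0% lower). Sfrp2 differed by -3.40 ± 0.68 (contractile minus matrix, log2, edgeR adjusted p = 0.00204) and Sfrp4 by -3.33 ± 0.71 (edgeR adjusted p = 0.00405, DESeq2 adjusted p = 0.687). A second fit, added after the data were seen, took the 5 plates with at least 3 wells of each kind (FibCtrl 1 and 4, FibΔZeb1 1, 3 and 4), and called 3 of 6 members tested, all lower in contractile wells, where 4.88% of 4937 genes were called (1.54% higher and 3.34% lower). On those plates Sfrp2 stood at 1307, 1368, 85.1, 602 and 1788 CPM in matrix wells and at 213, 99.8, 70.2, 13.6 and 211 CPM in contractile wells. It was lower in contractile wells on 5 of 5 plates, by the smallest margin on FibΔZeb1 1 (-2.89 ± 0.50, edgeR adjusted p = 0.00546, and 0.0645 without FibCtrl 1). Without the well of each kind that held most of the gene, Sfrp2 on FibΔZeb1 1 was 0 CPM in matrix and 1.99 CPM in contractile wells, and it was lower in contractile wells on the other 4 plates.

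Sfrp4 stood at 1135, 1499, 1172, 479 and 595 CPM in matrix wells and at 210.5, 0, 80.8, 0 and 145 CPM in contractile wells. The ranges did not overlap, and the difference was -3.69 ± 0.60 (edgeR adjusted p = 0.00393). Without the top well of each kind Sfrp4 was still lower in contractile wells on 5 of 5 plates. Wnt2 stood at 85.4, 223, 93.6, 15.6 and 99 CPM in matrix wells and at 11, 66.5, 8.96, 27.2 and 44.4 CPM in contractile wells. It was lower in contractile wells on 4 of 5 plates (-2.21 ± 0.50, edgeR adjusted p = 0.0231). That call was lost without FibCtrl 4 (edgeR adjusted p = 0.0508), without FibΔZeb1 1 (edgeR adjusted p = 0.0840), and when subtypes were drawn from clusters (0.0643), with a stricter share (0.0888) or in classes from marker sums (0.444).

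Wnt5a did not pass the test, and its levels lay in the opposite direction. It stood at 33.0, 4.78, 8.50, 49.2 and 16.5 CPM in matrix wells and at 75.0, 33.3, 37.6, 136 and 44.4 CPM in contractile wells, higher in contractile wells on 5 of 5 plates (1.45 ± 0.40, edgeR adjusted p = 0.0644). Wnt4, which was at 117 CPM over all fibroblast-like wells, differed by -1.80 ± 0.60 (edgeR adjusted p = 0.139). Sfrp1 stood at 450.5, 638, 25.5, 55.9 and 994 CPM in matrix wells and at 248, 216, 608, 81.5 and 2675 CPM in contractile wells (0.46 ± 0.66, edgeR adjusted p = 0.825). It was lower in contractile wells on both FibCtrl plates and higher on all 3 FibΔZeb1 plates, but on FibΔZeb1 4 a single contractile well held 239 of the 241 transcripts, and without it the contractile level was 32.4 CPM, below that of matrix wells. The matrix level of FibΔZeb1 1 rests on 3 transcripts in 3 wells. The test of that difference between genotypes gave 3.12 ± 0.88 on the log2 scale (edgeR unadjusted p = 0.00352, adjusted p = 1). No gene of 6957 passed it, 232 had an unadjusted p under 0.05, and DESeq2 called 1.

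**Figure D3:**
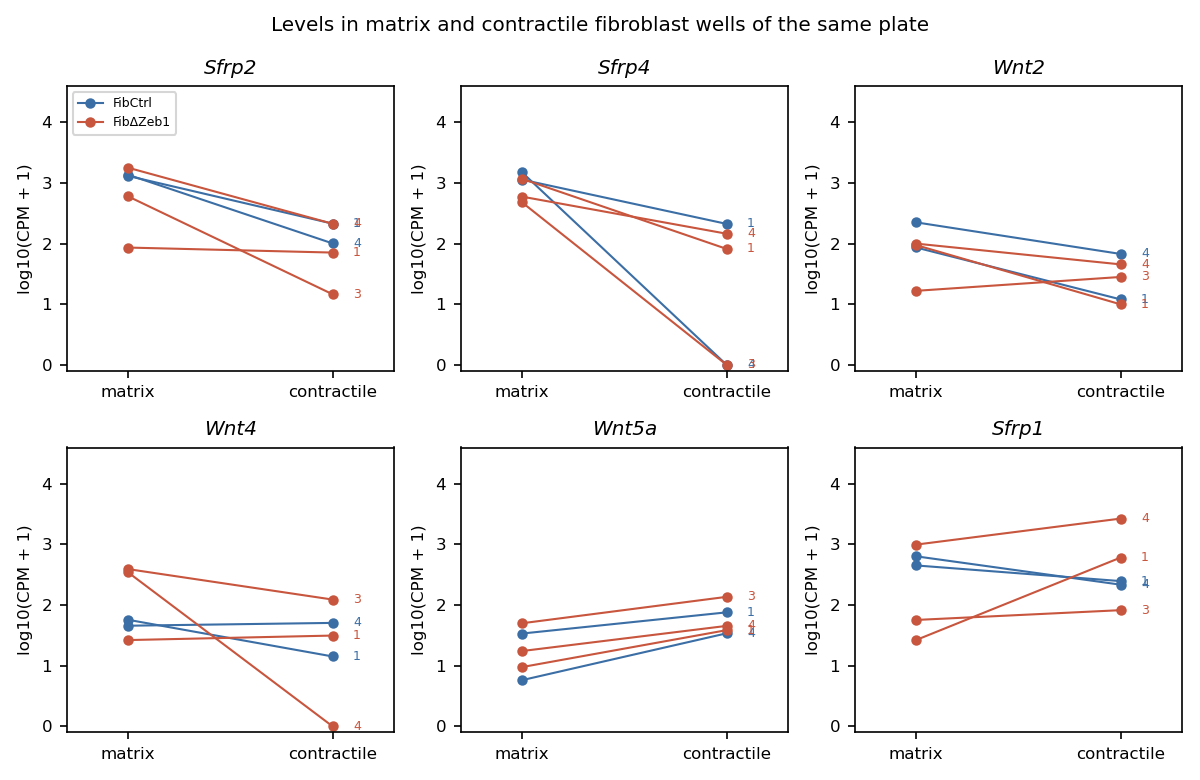
Level of 6 members in matrix and contractile fibroblast-like wells of the same plate, as log10(CPM + 1), with a line and replicate number for each plate and a colour for each genotype. Contractile wells are lower in Sfrp2 and Sfrp4 and higher in Wnt5a on 5 of 5 plates, and Sfrp1 is lower in them on the 2 FibCtrl plates and higher on the 3 FibΔZeb1 plates, on FibΔZeb1 4 through 1 well.

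Few other genes of the pathway passed the subtype tests. Igfbp4, a secreted antagonist, was lower in contractile wells in both (-2.67 ± 0.73, edgeR adjusted p = 0.0349 on 2 plates, and -1.76 ± 0.37, edgeR adjusted p = 0.0150 on 5 plates). Dkk2, which binds Lrp coreceptors, was higher on 2 plates (4.78 ± 0.79, edgeR adjusted p = 0.000323), at 2.24 ± 0.77 (edgeR adjusted p = 0.159) on 5 plates. Kremen1, a receptor of Dkk proteins, was higher in contractile wells on 5 plates (1.35 ± 0.33, edgeR adjusted p = 0.0330), and Pdgfra, a receptor of niche fibroblasts, was lower (-1.44 ± 0.34, edgeR adjusted p = 0.0312). F3, another gene of the niche list, was lower on 2 plates (-3.94 ± 0.81, edgeR adjusted p = 0.0030). None of the 7 receptors and coreceptors tested on 5 plates was called, and the median difference on those plates was -2.0 over the 6 members tested and 0.01 over all genes tested.

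Levels in fibroblast-like wells were then compared between genotypes, over the plates with at least 10 wells (FibCtrl 1 and 4, FibΔZeb1 1, 3 and 4). Zeb1 itself stood at 94.3 and 84.0 CPM on the FibCtrl plates and at 43.9, 49.4 and 28.7 CPM on the FibΔZeb1 plates. The groups did not overlap and the difference was -1.13 ± 0.29 on the log2 scale (edgeR adjusted p = 0.543). Counting at the 3′ end may not touch the deleted exons, so this is no check of the deletion. With edgeR none of 8253 genes passed (0.0% called, 488 at an unadjusted p under 0.05), and DESeq2 called 32. None of the 7 members tested was called by edgeR, and Rspo1, Rspo3 and Wnt2b did not pass the filter on low counts. The median difference was 0.35 over the 7 and 0.02 over all genes tested. Where groups are said not to overlap, the share of all genes that also did not overlap was not counted. Such a separation is therefore not a result about these genes in particular.

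Frzb had the largest difference of the members tested. It stood at 32.5 and 2.89 CPM on the FibCtrl plates and at 198, 162 and 344 CPM on the FibΔZeb1 plates. The groups did not overlap, also within each flow cell (32.5 against 198 CPM on the first, 2.89 against 162 and 344 CPM on the second), with a difference of 3.59 ± 0.76 (edgeR adjusted p = 0.323, DESeq2 adjusted p = 0.00207). A single well held 82.5% of the Frzb transcripts of FibΔZeb1 3 and 94.8% of those of FibΔZeb1 4. Without the top well of each plate the levels were 23.7 and 0 CPM against 162, 40.6 and 19.8 CPM, and the groups overlapped. On FibΔZeb1 1 the transcripts were spread over 17 of 20 wells, and on FibCtrl 1 over 9 of 37.

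Sfrp4 stood at 692 and 1362 CPM on the FibCtrl plates and at 268, 407 and 475 CPM on the FibΔZeb1 plates. The groups did not overlap, overall or within either flow cell, and they did not without the top well of each plate (418 and 639 CPM against 97.3, 246 and 313 CPM), with a difference of -1.45 ± 0.38 that did not pass the test (edgeR adjusted p = 0.584). The plates differed in their mix of subtypes. Matrix wells, in which Sfrp4 was higher, were 22 of 37 and 21 of 25 on FibCtrl 1 and 4 and 3 of 20, 8 of 14 and 8 of 13 on FibΔZeb1 1, 3 and 4. In matrix wells alone Sfrp4 overlapped between genotypes, with 1172 CPM on FibΔZeb1 1 against 1135 CPM on FibCtrl 1. On FibΔZeb1 1 a single well held 122 of the 138 Sfrp4 transcripts of its 3 matrix wells. Without the top matrix well of each plate the levels were 635 and 710 CPM against 256, 295 and 349 CPM, which did not overlap. In both removals the well was chosen by its Sfrp4 level and was a larger part of the wells on the FibΔZeb1 plates.

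Wnt4 stood at 35.5 and 45.0 CPM against 29.3, 350 and 259 CPM, with FibΔZeb1 1 below both FibCtrl plates (2.36 ± 0.87, edgeR adjusted p = 0.827). The mesothelial list, in whose wells Wnt4 was highest, summed to 98.4 and 138 CPM in the fibroblast-like wells of the FibCtrl plates and to 141, 204 and 331 CPM in those of the FibΔZeb1 plates, and its part in the Wnt4 level was not tested. Nearly all of each sum was Wt1, at 96.4 and 130 CPM and at 138, 204 and 327 CPM. The markers Lrrn4 and Bnc1 had no transcript in the fibroblast-like wells. Wnt2 stood at 49.7 and 209 CPM against 23.4, 17.1 and 79.1 CPM, also overlapping (-1.85 ± 0.74, edgeR adjusted p = 0.827). On FibΔZeb1 4, 1 well held 81.9% of the Wnt2 transcripts. Without the top well of each plate the levels were 32.3 and 175 CPM against 12.7, 16.2 and 18.7 CPM, which did not overlap. The well removed was chosen by its Wnt2 level and was a larger part of the wells on the FibΔZeb1 plates, so that separation may come from the removal.

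Sfrp1 stood at 359 and 598 CPM against 502, 58.9 and 1514 CPM, Sfrp2 at 788 and 1253 CPM against 72.0, 513 and 1247 CPM, and Wnt5a at 51.7 and 7.24 CPM against 32.2, 60.8 and 25.1 CPM. In each the groups overlapped, and the edgeR adjusted p was 0.994. The 3 genes left untested were low on every plate. Rspo1 stood at 2.03 and 7.24 CPM against 7.32, 13.3 and 35.9 CPM, a separation narrower than counting error. Rspo3 stood at 14.2 and 0 CPM against 8.78, 0 and 14.3 CPM, and Wnt2b at 0 and 1.45 CPM against 0, 1.90 and 0 CPM. The 3 plates under 10 wells rest on 3 to 6 wells each, and there Sfrp1 ranged from 0 (FibCtrl 3) to 3803 CPM (FibΔZeb1 2).

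**Figure D4:**
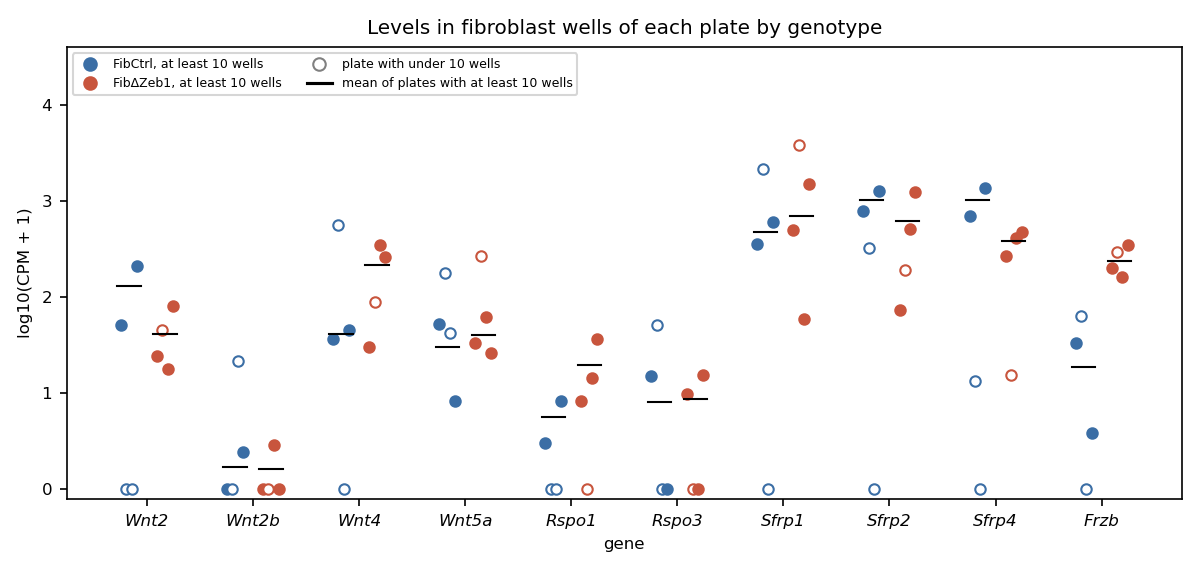
Level of each member in the fibroblast-like wells of each plate, as log10(CPM + 1), by genotype, with open circles for plates under 10 wells and a bar at the mean of the others. Among the plates with at least 10 wells Frzb, Sfrp4 and, narrowly, Rspo1 do not overlap between genotypes, and Frzb and Sfrp4 did not pass the edgeR test. The share of all genes that also do not overlap was not counted.

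**Figure D5:**
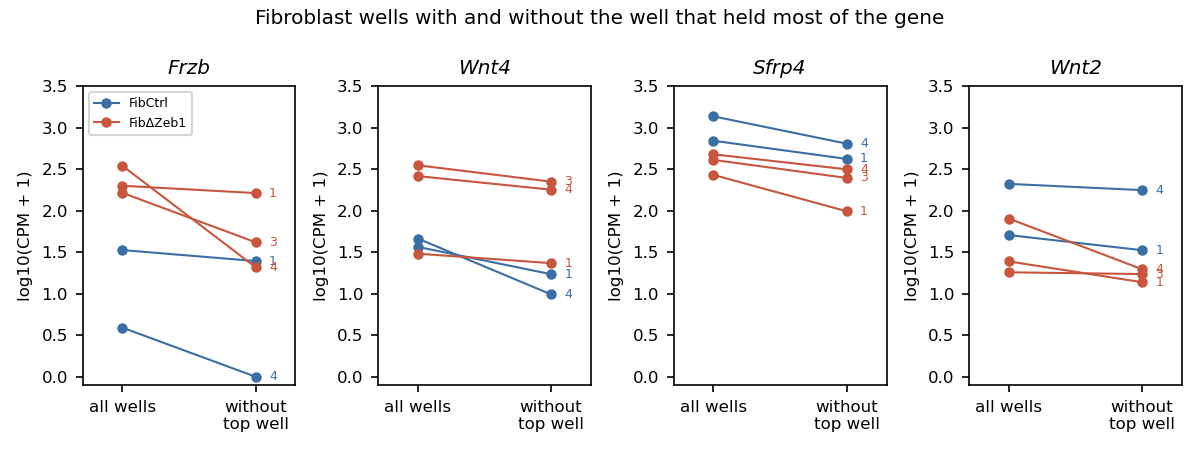
Level of 4 members per plate with all fibroblast-like wells and without the well that held most of the gene, as log10(CPM + 1). Frzb goes from 344 to 19.8 CPM on FibΔZeb1 4 and from 162 to 40.6 CPM on FibΔZeb1 3, while on FibΔZeb1 1 it goes from 198 to 162 CPM.

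Genes of gut mesenchyme identity were also unequal between these plates. The 6 listed factors summed to 17.2 and 20.3 CPM on FibCtrl 1 and 4 and to 110, 81.6 and 53.8 CPM on FibΔZeb1 1, 3 and 4, with 476 CPM in the 3 wells of FibCtrl 2, led by Nkx2-3, a homeobox gene of gut mesenchyme (3.58 ± 0.63, edgeR adjusted p = 0.220). Their part in the member levels was not tested. Replicates are whole mice, and the plates compared held only 3 to 22 matrix wells and 3 to 16 contractile wells each. With so few wells, a change in the mix of fibroblasts and a change within them cannot be told apart.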

How the data were processed

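The authors aligned the reads of each plate and deposited 1 table of transcripts per gene and well. The submitters' processing notes name BWA, Cell Ranger 2.1.1 and GRCm38. The deposited values are estimated counts: unique molecular identifiers corrected for collisions, of which 86.3% were exactly whole, so sums were rounded before any test. All 8 plates share the same 384 well names, which are positions and not shared cells. The members and all gene lists were chosen with earlier results of these data known. The full genotype of the organoids is not reported here.

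Rows of spike-ins (89) and mitochondrial genes (37) were left out of levels and library sizes. Wells were clustered (leidenalg 0.10.2, 2000 variable genes, 20 components) and named from marker lists. No doublet caller was run. Fibroblast-like wells with at least 2 transcripts of Ptprc or Epcam were removed (35). Counts were summed per plate, since the mouse is the replicate, with at least 10 wells per plate and class. For the subtype split, wells needed at least 5 transcripts of the 4 subtype genes, and a share of Tagln and Acta2 above 0.5 made a well contractile. Sums were tested across all genes with edgeR 4.0.16 (quasi-likelihood, TMM, filterByExpr, Benjamini-Hochberg, adjusted p under 0.05), with plate as a block for comparisons within plates, and the same procedure was checked on simulated counts. Each SE was worked back from the edgeR test, as the size of the log2 difference divided by the square root of its F statistic. The test of stromal against epithelial wells (at least 2000 transcripts), that of epithelial-like wells between genotypes and that with at least 3 wells per subtype were added after the data were seen. Alternatives were DESeq2 1.42.0, no gene filter, flow cell or replicate number as a term, other well filters, and leaving out each plate. Subtype levels without the top well were added after the data were seen. All levels without the top well leave out a well chosen by the gene compared, which weighs more where wells are few. All 10 members are reported, and a gene of another pathway list is named only where it passed a test or was among the 3 highest of its list in fibroblast-like wells. The study tested single cells as replicates, which was not done here. Replicate numbers 1 and 2 were on 1 flow cell and 3 and 4 on the other, per the labels of the deposited files.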

Additional observations from a re-analysis of the deposited data

Results flagged for a closer look

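In epithelial-like wells 4 values stood apart from the other 3 plates of their genotype by Dixon's criterion, among 19 groups of 4 plates examined, where chance alone marks a small share of groups. These were Wnt2 on FibCtrl 2 (13.74 CPM), Wnt4 on FibCtrl 2 (299.5 CPM), Sfrp2 on FibΔZeb1 4 (14.41 CPM) and Frzb on FibCtrl 1 (2.05 CPM). The Frzb value is 6 transcripts, and since the other 3 FibCtrl plates held none, any value above 0 would have met the criterion. FibCtrl 2 is the plate with the fewest transcripts, and it held 18 epithelial-like wells. Its immune wells also held more Wnt4 (93.9 CPM) than those of any other plate.

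The contractile minus matrix difference of Sfrp1 had the opposite sign in the plates of each genotype, and the difference between genotypes was 3.12 on the log2 scale (edgeR, unadjusted p = 0.00352, adjusted p = 1), so it did not pass the correction over all genes. On FibΔZeb1 4 the sign rests on 1 contractile well with 239 of 241 Sfrp1 transcripts, and without that well it turns (32.4 CPM in contractile against 994 CPM in matrix wells).

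Members were also found in wells that entered no main comparison. The unnamed clusters held 190 transcripts of the 10 genes together outside the stromal and epithelial gates, the wells under the filters held 229, and the fibroblast-like wells removed for Ptprc or Epcam held 1900. The removed wells are the largest of these, with 35 wells.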

How the results depend on the processing

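The number of genes called between genotypes in fibroblast-like wells was 0 with edgeR, 32 with DESeq2, 317 with no gene filter, 11 with flow cell as a term, 1 with at least 5 wells per plate, 2 in classes from marker sums, and 0 to 3 leaving out 1 plate at a time. A fit with the replicate number as a block called 126. Same-numbered plates correlated at 0.272 and 0.191 in their deviations over fibroblast-like wells. There only FibCtrl 1 and 4 entered from their genotype, and their deviations are mirror images, so these values cannot decide a pairing. Over epithelial-like wells same-numbered plates correlated at 0.515, 0.266, 0.0555 and 0.0784, and differently numbered plates at -0.249 to 0.369. The replicate number is thus not shown to pair the mice. Under that block Frzb (3.87, adjusted p = 0.00241) and Sfrp4 (-1.46, adjusted p = 0.0292) passed and Wnt5a was -0.0308, and no gene was called in epithelial-like wells. With no gene filter Wnt2, Wnt4, Sfrp4 and Frzb passed. Over all stromal classes Wnt4 was -0.46. Leaving out 1 plate, Wnt5a ranged from -0.41 to 2.40 and Sfrp1 from -0.81 to 1.063.

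In the subtype comparison on 2 plates DESeq2 called 105 genes and a split at 0.35 and 0.65 called 135. Sfrp1 turned to 0.46 with at least 3 wells and Frzb to 1.048 with clusters in place of the share. Marker sums, leaving out a plate, and the interaction with at least 5 wells could not be fitted, since they leave 1 plate or no residual degrees of freedom. On 5 plates 531 genes were called with no gene filter, 160 from marker sums and 61 to 230 leaving out 1 plate, and Sfrp1 was -0.27 at the stricter split, -0.60 with clusters and -0.23 to 1.02 leaving out 1 plate. The interaction called 1 gene with DESeq2, 14 with no gene filter, Sfrp1 among them, and 0 to 7 leaving out 1 plate, with ranges of -2.01 to 0.33 for Wnt4, -1.03 to 0.27 for Wnt5a, -0.66 to 1.31 for Sfrp2, -1.18 to 8.08 for Sfrp4 and -4.93 to 1.54 for Frzb.

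In epithelial-like wells DESeq2 called 1 gene and leaving out 1 plate 0 to 0, with ranges of -2.15 to 1.01 for Wnt4, -0.24 to 0.52 for Wnt5a and -2.12 to 0.47 for Rspo3. Stromal against epithelial wells gave 3501 to 4184 genes leaving out 1 plate, with Wnt5a from -0.20 to 0.28. Thinned to 5000 transcripts, the fibroblast-like share was 20.69% for Wnt2, 17.24% for Wnt4, 20.69% for Wnt5a, 42.24% for Sfrp2, 47.41% for Sfrp4 and 20.69% for Frzb, and Wnt2b was 3.053 CPM with at least 1000 transcripts per well. Of all member results under alternatives, 297 kept direction and side of the threshold, 10 came to pass, 7 no longer passed and 27 changed sign. The cause of these changes was not tested.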
